A study of Mus musculus with 12 samples.

Results

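The genes of mouse chromosome 8 were selected on their parental skew: in every library of the series they carried fewer counts from the 129S genome than from the Castaneus genome. The 129S share of their counts is therefore the value that chose them. Its size is given as a description with no test. Tests of the share were limited to its change with Dox and its difference between lines. Members were the genes on chromosome 8 with a span under 500000 bases, leaving out Klf2, Zfp42, Cdh3 and genes whose names begin with Nduf, Mrpl, Mrps, Rpl, Rps or Hist. Of 1083 genes counted on the chromosome, 13 were left out for length and 9 for name, which left 1061 members of 22556 genes counted in all.

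Chromatin-associated RNA was sequenced (ChrRNA-seq) in iXist-ChrX mESCs, XX embryonic stem cells of a 129S and Castaneus hybrid, to compare Xist-mediated silencing between lines with deletions in Xist. All lines share a TetOn promoter in place of the Xist promoter on the 129S X chromosome, rtTA expressed from the TIGRE locus, and growth in serum and LIF on inactivated fibroblast feeders. The study's methods state that the RNA came from cells freed of feeders by plating beforehand. Each was sampled without doxycycline (Dox) and after 24 h of Dox, which switches Xist on. WT, with no deletion in Xist, had 1 library in each state. XistDelA lacks the A-repeat of Xist and had the clones C1, 2C2 and C11, each with 1 library in each state. For C11 the deposited data name the deletion in another way than for the other clones. XistDelm6A/T1_11C lacks the 5′ m6A region of Xist and had the replicates 1 and 2 in each state. It is 1 line and is called 11C from here on. The study's methods speak of biological replicates for each experiment. The labels do not say that those of 11C came from separate cultures, and where they did not, p-values measure only the spread between these samples, which may be technical.

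The total counts on genes were 27022431 in WT without Dox and 27795782 with Dox. In XistDelA they were 25742430 and 27489603 for C1, 22949578 and 27300014 for 2C2, and 26081951 and 27469878 for C11, without and with Dox. In 11C they were 21551628 and 36007145 for replicate 1 and 18893447 and 21079263 for replicate 2. Depth thus differed most between the libraries of 11C. A parental genome could be assigned to 44.6% to 47.1% of the counts, and chromosome 8 members held from 416076 to 881337 parental counts per library.

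In a hybrid, a read that covers a sequence variant can be assigned to the chromosome it was transcribed from, and most autosomal genes are transcribed from both homologues. ChrRNA-seq reads mainly nascent transcripts, introns included, so that the parental counts of a gene follow transcription of each homologue more closely than counts of mature mRNA do. Chromosome 8 carries genes of many unrelated roles, among them the metallothionein genes, the gene for the insulator protein CTCF, cadherin genes and a large group of carboxylesterase genes used in liver.

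The mESC label was checked against marker genes, with levels given as RPKM (counts on a gene divided by its span in kilobases and by the library's counts on genes in units of 1e+06). All 8 mESC markers were among the genes counted and 7 had a mean level above 1 RPKM, with Dppa5a the most abundant at 68.5 RPKM (19.8 to 103.8 over the 12 libraries). Sox2 was at 0 in every library, and so it could not be used. Of 8 fibroblast markers, Fn1 had a mean of 10.0 RPKM, the other 7 had means of at most 0.338 RPKM, and Lum had no count in at least 1 library. The summed fibroblast markers lay between 8.89 and 12.9 RPKM. The 6 primitive endoderm markers, led by the laminin gene Lama1 at 3.24 RPKM, summed to between 2.42 and 6.36 RPKM. Fn1 and Lama1 make up most of their sums, and Dppa5a is a large part of the mESC sum. These sums therefore follow single genes more than the other markers of each list. RNA of fewer cells of a type and less RNA per cell cannot be told apart in these bulk samples.

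Every member is accounted for as follows. Of the 1061 members, 834 had a count in every library and 60 had none in any library. A mean of at least 10 parental counts per library was reached by 717 members (67.6%), against 58.5% of 17737 genes on the 16 autosomes taken as a reference (all but chromosomes 8, 11 and 12), and 344 members fell below it. A mean of at least 50 was reached by 569 members and 7960 reference genes. Annotation placed 917 members among protein-coding genes, 63 among long noncoding RNAs, 14 among pseudogenes and 1 among other RNAs, and 66 names were not matched. At the length threshold, the longest members were Tenm3, a teneurin gene for a cell surface protein of neurons (span 449027 bases, mean share 0.285), and Myo16, an unconventional myosin gene (480029 bases, 0.380). The shortest genes left out for length were 1700007B14Rik (535815 bases, 0.164) and Large, a glycosyltransferase gene for dystroglycan (537959 bases, 0.350). Of the 13 genes left out for length, 6 had a mean share above 0.5, the highest being Sgcz, a sarcoglycan gene (0.968), and Csmd1, which codes for a membrane protein of the nervous system (0.897), both at levels below 0.03 RPKM.

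Pooled over all members, the 129S share was close to 0.35 in every library. In WT it was 0.350 without Dox (Wilson 95% interval 0.349 to 0.352) and 0.353 with Dox (0.351 to 0.354), and these intervals cover counting error only. In XistDelA it was 0.351 and 0.353 in C1, 0.351 and 0.354 in 2C2, and 0.354 and 0.354 in C11, without and with Dox. In 11C it was 0.350 and 0.353 in replicate 1 and 0.351 and 0.351 in replicate 2. The 12 libraries therefore spanned 0.350 to 0.354, and the ranges of the lines and of the states overlapped. Pooled in the same way, single reference autosomes lay between 0.387 and 0.540. The lowest value was that of chromosome 16, whose median over genes was 0.520 to 0.531.

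Taken gene by gene, the median share of the 717 members with at least 10 parental counts was 0.345 to 0.360 in the 12 libraries. Over the reference genes the same median was 0.519 to 0.527, and the medians of single reference chromosomes lay between 0.497 and 0.539. In log2 units, the median ratio of 129S to Castaneus counts on chromosome 8 was from -1.04 to -0.96 below that of the reference, a ratio of 0.488 to 0.513 relative to it. In each library between 647 and 668 of the 717 members had a share below 0.5. Chromosome 8 was set apart from all 16 reference autosomes in each library, as the plot of chromosome medians shows.

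**Figure D1:**
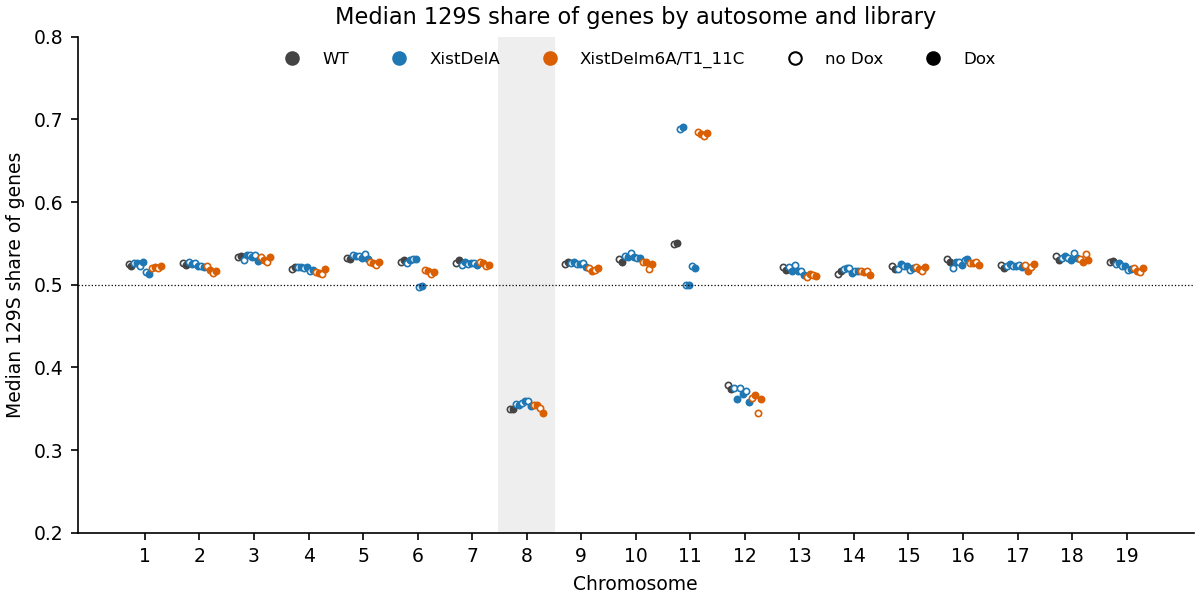
Median 129S share of genes with a mean of at least 10 parental counts (vertical axis, a fraction) for each of the 19 autosomes (horizontal axis), 1 point per library, coloured by line, open without Dox and filled with Dox. Chromosome 8, shaded, lies at 0.345 to 0.360 in all 12 libraries, while the 16 reference autosomes lie between 0.497 and 0.539.

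Chromosomes 11 and 12 also departed from the reference, each in another way than chromosome 8. The medians of chromosome 11 ranged from 0.500 to 0.690 and differed between clones, with C1 and 11C at the upper end, whereas those of chromosome 8 were alike in all clones. On chromosome 12 the share differed along the chromosome: windows of 10 Mb had medians of 0.478 to 0.568 up to 70 Mb and of 0.242 to 0.301 beyond 80 Mb.

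Along chromosome 8 the skew was found in every bin and window, although short runs of neighbouring genes, such as Cpe and Msmo1, lacked it. In 18 consecutive bins of 39 or 40 members, the bin medians of single libraries lay between 0.296 and 0.400, and the median over libraries ran from 0.326 to 0.375. In 13 windows of 10 Mb the library medians ranged from 0.290 to 0.384. The lowest windows were the first (median over libraries 0.318, 28 members) and that from 30 to 40 Mb (0.320, 31 members), and the highest was that from 100 to 110 Mb (0.370, 79 members). No window approached the reference median, so that at this scale the skew spanned the chromosome, unlike that of chromosome 12.

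**Figure D2:**
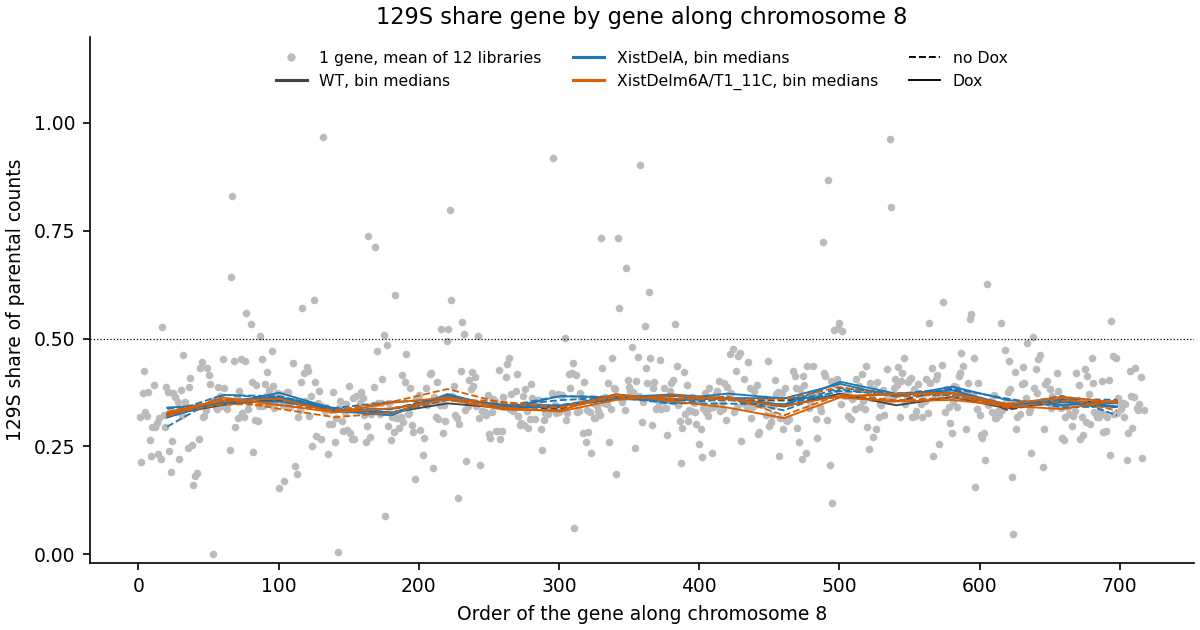
129S share of parental counts (vertical axis, a fraction) for each of 717 members in their order along chromosome 8 (horizontal axis), with grey points for the mean of 12 libraries and lines for the medians of 18 bins in each library, coloured by line, dashed without Dox and solid with Dox. The lines overlap and stay between 0.296 and 0.400 from the first bin to the last, while single genes range from near 0 to near 1.

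Single genes spread around this common value. Among the 569 members with at least 50 parental counts, the median of the mean shares was 0.352, the middle 50% lay between 0.320 and 0.389, and the 5th and 95th percentiles were 0.245 and 0.492. The share was below 0.5 in all 12 libraries for 483 of these members (84.9%), above 0.5 in all for 12 (2.11%) and on both sides for 74 (13.0%). Among the 7960 reference genes the corresponding figures were 12.2%, 32.7% and 55.2%. The spread between genes was of a similar size in both sets, with an interquartile range of the log2 ratio of 0.43 on chromosome 8 and 0.47 in the reference. The median SD of a gene over the 12 libraries was 0.0294 for members and 0.0318 for reference genes.

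The differences between genes recurred from library to library. Across the 569 members, Pearson's r between the shares of 2 libraries was 0.708 to 0.896 with a median of 0.850 over 66 pairs of libraries. The genes are not independent replicates, and the libraries share the same variants and mapping, so that this is a description only. Among members, the share varied little with level, strand, gene class and length, where the genes above the length threshold, given above, were not included. In 3 sets of 239 members ordered by level, the median share was 0.347, 0.358 and 0.348 from low to high, and in 3 sets ordered by length it was 0.347, 0.355 and 0.354. It was 0.353 on the plus strand and 0.348 on the minus strand, and 0.351 for 661 protein-coding genes and 0.348 for 15 long noncoding RNAs.

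The skew was found in most of the genes with at least 50 parental counts in each of 6 functional lists. The median of each list was taken over its genes with at least 10 parental counts. Of 22 regulators of chromatin and transcription with at least 50 parental counts, all 22 were below 0.5 in every library. The 23 with at least 10 parental counts ran from Ing1 (a reader of histone methylation, mean share 0.254) to Sin3b (a corepressor scaffold, 0.432). Their median was 0.351. Ctcf had a mean share of 0.362 (0.322 to 0.384 over the 12 libraries) and Smarca5, the ATPase of ISWI remodelling complexes, had 0.401 (0.385 to 0.432). All 29 genes of RNA processing and translation were below 0.5 in every library, from Kars (0.155) to Sugp2 (a splicing factor, 0.442), with a median of 0.355.

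Of 27 genes of DNA replication, repair and the cell cycle, 25 were below 0.5 in every library, with a median over the list of 0.347 and a range from Tubgcp3 (a component of the gamma-tubulin ring complex, 0.268) to Anapc10 (a subunit of the anaphase-promoting complex, 0.481). Of 25 genes of metabolism, stress and proteostasis, 22 were below 0.5 in every library. The 25 ran from the metallothionein gene Mt2 (0.227) to Slc25a4 (the mitochondrial ADP/ATP carrier, 0.601), with a median of 0.347. Slc25a4 was above 0.5 in all 12 libraries. Of 14 genes of development, adhesion and signalling, 12 were below 0.5 in every library. Over the 16 genes of this list with at least 10 parental counts, the median was 0.350. They ran from Nkd1 (an antagonist of Wnt signalling, 0.316) to Gab1 (a docking protein of receptor tyrosine kinases, 0.457). Cdh1, the E-cadherin gene of this list, had 0.318 (0.291 to 0.346). Only 7 of 26 tissue-restricted genes had at least 10 parental counts, and of 6 with at least 50, 4 were below 0.5 in every library, the smallest fraction of the 6 lists. The 6 ranged from Cdh8 (0.312) to Cdh11 (0.867), and the median level of this list was 0.00565 RPKM. The list medians of 0.347 to 0.379, over genes with at least 10 parental counts, were thus close to that of all members.

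The members with the most parental counts fix their own shares most closely, and they did not all share one value. Ankrd10, which codes for an ankyrin repeat protein, had a mean of 20919 parental counts per library and the highest level of all members, 67.2 RPKM (56.1 to 80.7). Its share was 0.168 and 0.182 in WT, 0.148 and 0.149 in C1, 0.155 and 0.155 in 2C2, 0.174 and 0.175 in C11, 0.147 and 0.172 in replicate 1 and 0.147 and 0.156 in replicate 2 of 11C, without and with Dox. All 12 values lay below the 5th percentile of the members. Rbpms, coding for an RNA-binding protein, had a mean share of 0.261 (0.239 to 0.275), Chd9, a chromodomain helicase gene, 0.283 (0.269 to 0.301), Ankrd11, a chromatin regulator gene, 0.326 (0.321 to 0.334), and Fto, an RNA demethylase gene, 0.361 (0.344 to 0.374). Mcph1, a gene of chromosome condensation and brain size, had 0.448 (0.440 to 0.457). The ranges of Ankrd10, Ankrd11 and Mcph1 over the 12 libraries did not overlap, whereas those of Rbpms and Chd9 did.

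The lowest shares among members with at least 50 parental counts were mostly found beside genes with higher shares. Atp4b, coding for a subunit of the gastric proton pump, had 129S counts in 2 of 12 libraries, with shares of 0.00498 in WT with Dox and 0.0099 in 2C2 without Dox, while its neighbour Tfdp1 had a mean share of 0.353. Mboat4, the ghrelin O-acyltransferase gene, had shares of 0 to 0.016. Atp2c2, a calcium pump gene, had a mean of 0.0457, Sorbs2os 0.0885 and Tktl2, a transketolase-like gene, 0.131. Sorbs2os is antisense to Sorbs2 (0.508) and overlaps it, and the counting was by strand. Kars, coding for lysyl-tRNA synthetase, had 0.133 and 0.147 in WT, 0.132 and 0.150 in C1, 0.134 and 0.164 in 2C2, 0.138 and 0.133 in C11, 0.183 and 0.183 in replicate 1 and 0.140 and 0.222 in replicate 2 of 11C, against means of 0.456 and 0.336 for its neighbours Adat1 and Terf2ip.

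At the other end, Nfatc3, coding for a calcium-regulated transcription factor, had shares of 0.977 and 0.969 in WT, 0.978 and 0.950 in C1, 0.985 and 0.975 in 2C2, 0.978 and 0.968 in C11, 0.934 and 0.945 in replicate 1 and 0.961 and 0.945 in replicate 2 of 11C. It was thus read almost only from the 129S genome. Its neighbours had few parental counts, with a mean share of 0.356 for Dus2 and of 0.805 for Esrp2. Inpp4b, a phosphoinositide phosphatase gene, had a mean of 0.904 (0.809 to 0.957), and Cdh11, a cadherin gene of mesenchyme, had 0.867 (0.750 to 0.949). Cpe, the carboxypeptidase E gene, had 0.798, and Pdgfrl, which codes for a protein like the PDGF receptor, had 0.738 with a wide range from 0.556 to 0.858. Triml1, a gene of preimplantation embryos, had 0.711 (0.667 to 0.759), and the adjacent Triml2 had 0.472. The other 6 members above 0.5 in all 12 libraries, among those with at least 50 parental counts, were Gm4890, Cdyl2, Slc25a4, Msmo1, Nek3 and Tmem231, with means of 0.556 to 0.665.

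**Figure D3:**
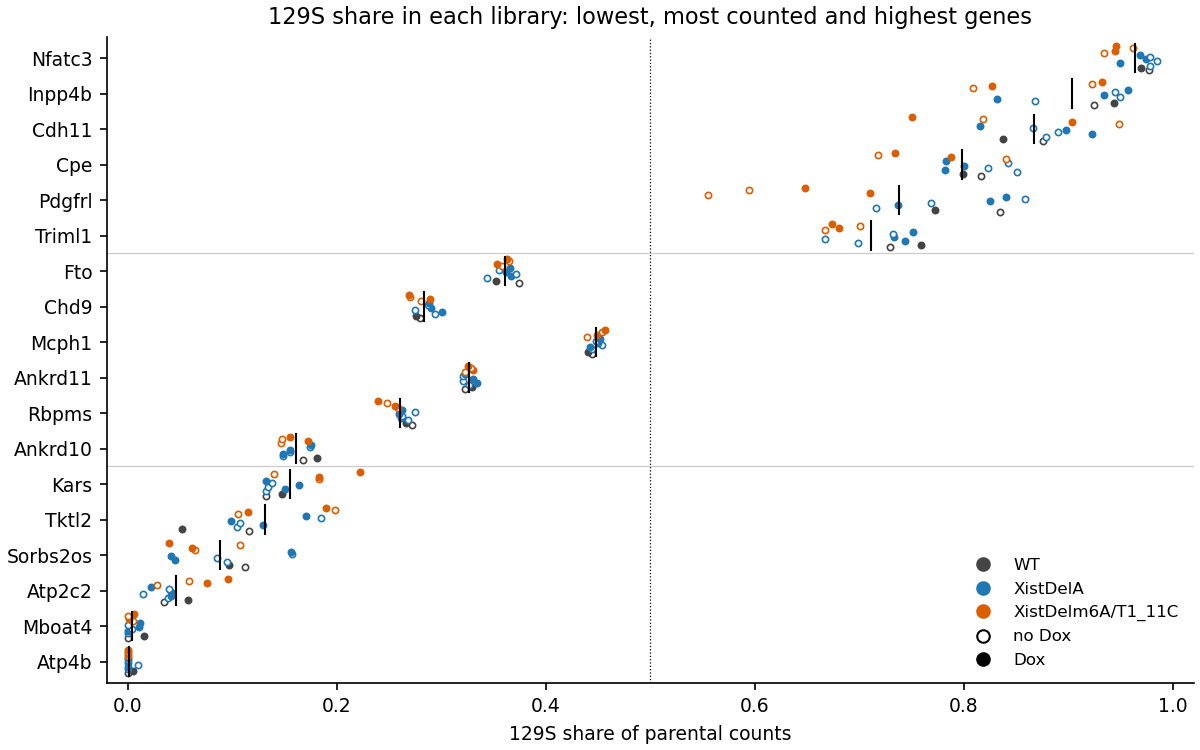
129S share of parental counts (horizontal axis, a fraction) in each of 12 libraries for the 6 lowest, 6 most counted and 6 highest members (vertical axis, bottom to top), coloured by line, open without Dox and filled with Dox, with a black bar at the mean. Most members kept to a narrow range of their own, such as 0.440 to 0.457 for Mcph1, and Pdgfrl ranged from 0.556 to 0.858.

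Promoter sequences are shown for 4 of these genes, namely Ankrd10 as the most counted member, Kars as the most counted of the 6 lowest and Triml1 and Nfatc3 as the 2 most counted of the 6 highest, so that the sequence around their starts can be seen beside those values. RefSeq promoters of GRCm38.p6, from 250 bases before to 50 after a start, were matched by symbol for 680 members with 804 promoters. Capitals mark, on either strand, the CCAAT box by those letters, the GC box spelled GGGCGG and the E-box spelled CACGTG. The TATA box spelled TATAAA and the cyclic AMP response element (CRE) spelled TGACGTCA were searched for and not found in these 4. The 4 lie at chr8:11634987-11635286 (Ankrd10, minus strand), chr8:112011305-112011604 (Kars, minus strand), chr8:106059340-106059639 (Nfatc3, plus strand) and chr8:43141437-43141736 (Triml1, minus strand), and Ankrd10 and Nfatc3 each have another listed start.
Ankrd10: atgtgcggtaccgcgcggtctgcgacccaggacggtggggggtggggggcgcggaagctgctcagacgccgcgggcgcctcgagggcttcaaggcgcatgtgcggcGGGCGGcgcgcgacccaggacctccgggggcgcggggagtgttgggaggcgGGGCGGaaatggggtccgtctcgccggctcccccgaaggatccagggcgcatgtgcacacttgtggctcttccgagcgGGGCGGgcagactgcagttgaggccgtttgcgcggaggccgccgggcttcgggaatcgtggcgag
Kars: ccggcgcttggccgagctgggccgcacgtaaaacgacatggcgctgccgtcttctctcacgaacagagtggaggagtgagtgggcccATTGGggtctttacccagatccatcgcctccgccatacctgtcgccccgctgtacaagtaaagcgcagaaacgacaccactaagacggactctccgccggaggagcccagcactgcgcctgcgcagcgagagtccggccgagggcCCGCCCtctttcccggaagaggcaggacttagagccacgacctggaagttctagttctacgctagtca
Nfatc3: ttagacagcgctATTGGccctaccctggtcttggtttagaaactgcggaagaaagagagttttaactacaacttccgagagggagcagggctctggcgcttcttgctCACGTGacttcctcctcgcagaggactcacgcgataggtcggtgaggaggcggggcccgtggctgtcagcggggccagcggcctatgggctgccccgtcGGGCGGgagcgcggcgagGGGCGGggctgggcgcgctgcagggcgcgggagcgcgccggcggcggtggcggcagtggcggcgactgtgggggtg
Triml1: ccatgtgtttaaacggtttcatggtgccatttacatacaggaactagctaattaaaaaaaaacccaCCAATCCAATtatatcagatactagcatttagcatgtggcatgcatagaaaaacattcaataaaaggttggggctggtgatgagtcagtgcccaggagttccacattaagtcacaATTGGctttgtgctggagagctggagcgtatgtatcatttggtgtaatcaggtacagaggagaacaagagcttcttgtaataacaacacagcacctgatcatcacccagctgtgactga
The GC box is in 35.7% of all 32851 promoters and 52.5% of those of members, the CCAAT box in 37.4% and 40.3%, the E-box in 7.15% and 8.83%, the TATA box in 13.6% and 9.95% and the CRE in 1.79% and 3.73%. The promoters shown for Ankrd10, Kars and Nfatc3 hold 41, 27 and 32 CpG and a GC box, at mean shares of 0.161, 0.155 and 0.964, and that of Triml1 holds 2 CpG and no GC box. The other listed start of Ankrd10 has 27 CpG and a GC box, and that of Nfatc3 has 7 CpG and no GC box. The median number of CpG is 17 for members and 7 for all promoters. All promoters belong to 27025 genes, more than the 22556 counted here. Promoters of counted genes on other chromosomes were not compared, so that these figures show no trait of chromosome 8. A match to a motif is a description of letters only.

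The levels from each parental genome were then compared between chromosomes, as parental counts on the RPKM scale and as medians over genes with at least 10 parental counts. The median Castaneus level of members was 1.94 to 2.04 times the median of the reference chromosomes in the 12 libraries, and it ranked first of 19 autosomes in each library. The median 129S level was 0.948 to 1.04 times that of the reference, at ranks from 8 to 15. Averaged over libraries, the members had 0.347 from Castaneus and 0.192 from 129S, and the reference chromosomes had 0.173 and 0.192. The median total level of members was 1.31 to 1.43 times that of the reference, and members held 4.81% to 5.39% of autosomal counts. The skew thus went with a higher Castaneus level and with a 129S level near that of other autosomes. Chromosome 12, taken whole, showed a similar pattern, at 1.57 to 1.94 times the reference for Castaneus and 1.023 to 1.115 times for 129S. These levels come from the counts that chose the members and carry no test.

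**Figure D4:**
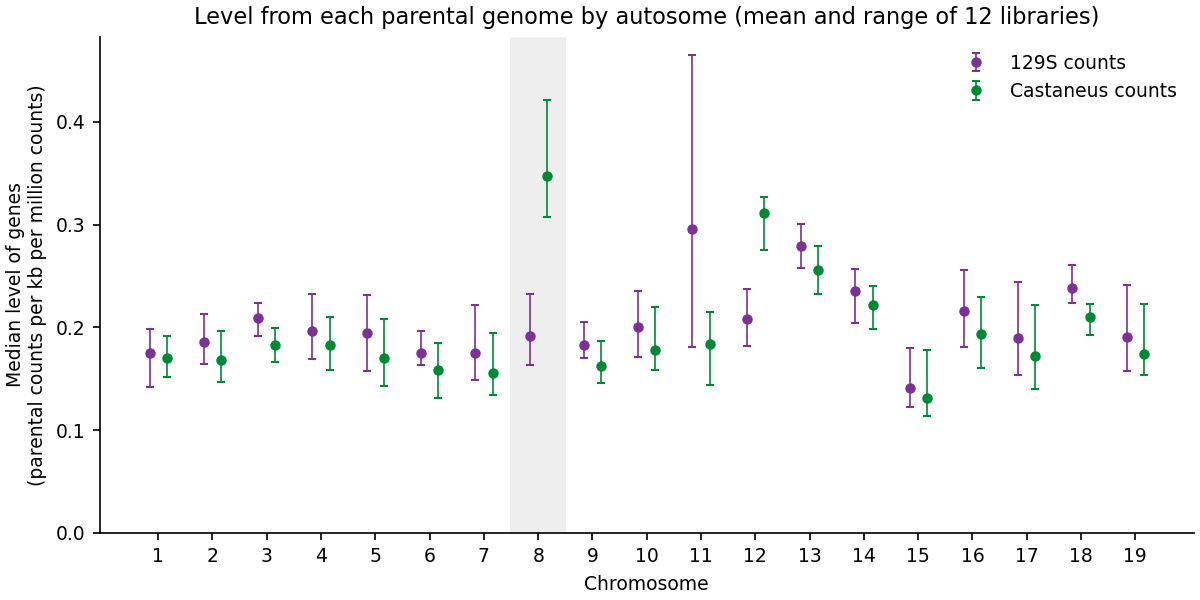
Median level of genes with a mean of at least 10 parental counts (vertical axis, parental counts on the RPKM scale) from the 129S and the Castaneus genome for each of the 19 autosomes (horizontal axis), with points for the mean of 12 libraries and bars for their range. On chromosome 8, shaded, the Castaneus level averages 0.347 and the 129S level 0.192.

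Whether induction of Xist moved the parental share of chromosome 8 was asked with the pairs of libraries without and with Dox, a contrast that the selection did not use. The pooled share with Dox minus that without was 0.00213 in WT, 0.00238 in C1, 0.00345 in 2C2, 0.000536 in C11, 0.00258 in replicate 1 and 0.000439 in replicate 2 of 11C. The change was upward in 6 of 6 pairs and small, with a mean of 0.00192 ± 0.00119 (SD, n = 6). The two-sided exact permutation p was 0.03125, the smallest that 6 pairs allow. However, 2 of the pairs are from the 1 line 11C and are matched by number only. With 11C counted as 1 unit, an exact permutation p under 0.0625 would not be possible. Without any 1 pair the mean was 0.00161 to 0.00222 and p was 0.0625, the smallest that the remaining pairs allow. The median over genes moved the other way, by -0.00165 on average and up in 2 of 6 pairs (exact permutation p = 0.34375), so that no common direction of the genes was found. All 6 pairs went 1 way on 2 of 19 autosomes, both upward. The other was chromosome 10, a reference autosome, with a mean change of 0.00195. Over the 16 reference autosomes the mean change ran from -0.00166 to 0.00616, so that the change on chromosome 8 was not larger than theirs.

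The lines were compared in the same manner, with each clone or replicate as the mean of its libraries. The pooled share was 0.351 ± 0.000391 (SD, n = 2) in 11C and 0.353 ± 0.000847 (SD, n = 3) in XistDelA. The difference of -0.00180 had a two-sided exact permutation p of 0.2, where the smallest possible p was 0.1, so that this design could not pass a threshold of 0.05.

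For single genes, a change of the share with Dox was tested with edgeR on the parental counts of all genes. In XistDelA, 0 of 681 members tested passed an adjusted p of 0.05, against 0% of 12865 genes in all, and 32 members (4.70%, against 3.86% of all genes) had an unadjusted p under 0.05. With the clone as a block, 6 members passed, a share of 0.881% against 1.1% of all genes. They were named after their values were seen, except Nfatc3, Triml1 and Anapc10. The share of Triml1 rose from 0.699 to 0.744 in C1, from 0.667 to 0.733 in 2C2 and from 0.732 to 0.752 in C11 (log2 change of the parental ratio 0.31, adjusted p = 0.000996 with the block in edgeR). That of Nfatc3 fell from 0.978 to 0.950, from 0.985 to 0.975 and from 0.978 to 0.968 (log2 change -0.89, adjusted p = 0.000385 with the block in edgeR). Klhdc4 (0.33), Anapc10 (0.21) and Stox2 (0.20) moved toward 129S and Cers4, a ceramide synthase gene, toward Castaneus (-0.44) on the same log2 scale. Without the block, none of these 6 passed, each at an adjusted p of 1.

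In 11C, 0 of 689 members tested changed share with Dox by edgeR, and 21 (3.05%, against 3.97% of all genes) had an unadjusted p under 0.05. Over all genes 0.81% passed, and 102 of these 105 genes were on the X chromosome, where the median log2 change of the parental ratio was -0.58. Chromosome 8 members had a median of -0.0039 in the same test. Between the lines without Dox, 0 of 689 members differed in share, against 0.0154% of 13020 genes, and 72 members (10.4%, against 10.6% of all genes) had an unadjusted p under 0.05. Leaving out C1 without Dox gave 7 members, among 587 genes in all. DESeq2 was not run on shares.

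The total level of members with Dox was then compared in XistDelA. Mt1, coding for a metal-binding metallothionein, was at 8.0 and 4.38 RPKM in WT, 9.62 and 5.28 in C1, 10.8 and 5.64 in 2C2, 9.43 and 5.75 in C11, 15.1 and 12.5 in replicate 1 and 11 and 7.15 in replicate 2 of 11C, without and with Dox. Its level was lower with Dox in 6 of 6 pairs, and in XistDelA the libraries of the 2 states did not overlap. Lamp1, a gene of the lysosomal membrane, was at 15.8 and 11 in WT, 14.1 and 10.1 in C1, 16.8 and 12.2 in 2C2, 15.4 and 11.4 in C11, 7.92 and 8.15 in replicate 1 and 9.19 and 6.06 in replicate 2 of 11C. Banp, coding for a nuclear matrix protein that binds DNA, was higher with Dox in XistDelA, at 0.755 and 1.19 RPKM in C1, 0.701 and 1.19 in 2C2 and 0.853 and 1.19 in C11, and was at 0.801 and 1.15 in WT. In 11C it was at 1.33 and 1.43 in replicate 1 and 1.198 and 1.192 in replicate 2, so that the 2 pairs differed in direction.

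None of these passed edgeR's test without a block: 0 of 765 members tested were called, against 0.0202% of 14866 genes, and 117 members (15.3%, against 14.5% of all genes) had an unadjusted p under 0.05. DESeq2 called 23 members, 7 higher and 16 lower, against 2.83% of all genes, with Mt1, Lamp1 and Banp among them. The clones pair the libraries, and with the clone as a block 233 members passed, 126 higher and 107 lower, which is 30.5% against 29.7% of all genes tested. A share of calls this close to that of all genes is not a result about chromosome 8. With the block, Mt1 fell by 0.87 on the log2 scale (SE 0.10, adjusted p = 2.26e-07 in edgeR; without it, also in edgeR, SE 0.12, adjusted p = 0.136), Lamp1 fell by 0.49 (adjusted p = 7.96e-09; without it 0.173) and Banp, chosen after its values were seen, rose by 0.60 (adjusted p = 6.25e-09; without it 0.136).

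By list, and with the clone block, 13 of 25 genes of metabolism, stress and proteostasis fell with Dox in XistDelA and 2 rose, with a median log2 change of -0.18 against 0.01 for all genes tested, of which 2211 fell and 2199 rose out of 14866. DESeq2 called 5 of the 25, all lower. Those that fell included Mt2, the other ubiquitous metallothionein gene (-0.66, adjusted p = 1.61e-05), Nqo1, a quinone reductase gene (-0.68, adjusted p = 2.78e-05), Map1lc3b, coding for an autophagosome protein (-0.52, adjusted p = 9.19e-06), and the cochaperone gene Dnaja2 (-0.41, adjusted p = 6.49e-07), all by edgeR. Gpt2, an alanine aminotransferase gene, rose by 0.40 (adjusted p = 5.36e-05). Hmox1, the heme oxygenase gene, is in no list and was chosen after its values were seen, and it fell by 0.67 (adjusted p = 1.28e-08 in edgeR), at 6.14 and 3.72 RPKM in C1, 5.46 and 3.48 in 2C2 and 6.77 and 4.58 in C11. Without the block none of the 6 genes passed edgeR's test, at adjusted p from 0.152 to 0.251, while DESeq2 without a block called Hmox1, Map1lc3b, Dnaja2 and Mt2 lower, at adjusted p from 0.00159 to 0.00525.

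**Figure D5:**
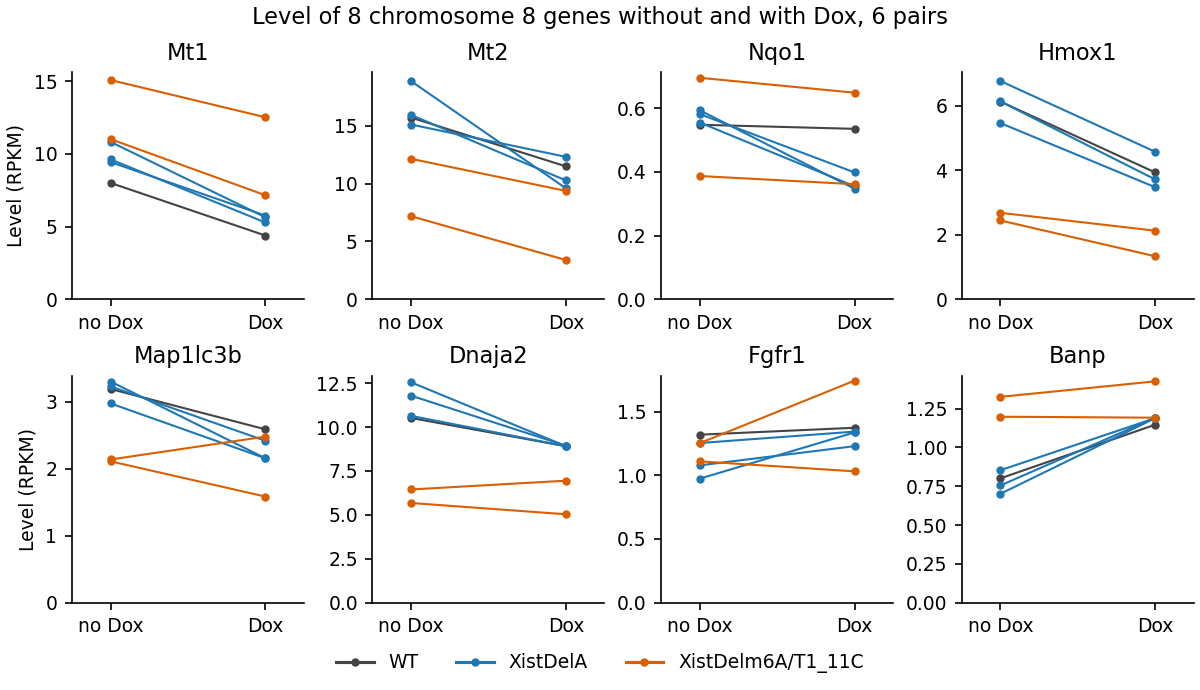
Level in RPKM (vertical axis, from 0) of 8 members without and with Dox (horizontal axis), with 1 line per pair of libraries, coloured by line of cells. Mt1, Mt2, Nqo1 and Hmox1 are lower with Dox in all 6 pairs, Map1lc3b and Dnaja2 in 5, and Fgfr1 and Banp are higher in 5 of 6.

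Other lists moved in both directions with the block, where 29.7% of all genes tested were called. DESeq2 called at most 2 genes of each. Of 29 genes of RNA processing and translation, 8 fell and 1 rose (median -0.08), among them Abce1, a ribosome recycling gene (-0.32, adjusted p = 4.8e-06 in edgeR). Of 28 genes of replication and repair, 8 rose and 3 fell (median 0.00), among them Cul4a, a ubiquitin ligase scaffold gene (0.18, adjusted p = 0.0127), and Mcph1 (0.16, adjusted p = 0.00852), which rose. Of 23 regulators of chromatin and transcription, 4 rose and 6 fell (median -0.01), among them Smarca5 (-0.28, adjusted p = 5.32e-05), and Ctcf was not called (-0.02). Of 17 genes of development, adhesion and signalling, 7 rose and 3 fell (median 0.08), among them Fgfr1, a growth factor receptor gene (0.22, adjusted p = 0.00654), and Sall1, a zinc finger transcription factor gene (-0.41, adjusted p = 4.31e-06), while Cdh1 was not called (0.08). Of 9 tissue-restricted genes tested, 1 rose and 4 fell.

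Markers moved along with Dox in the same clones. The summed mESC markers went from 159 to 120 RPKM in C1, from 157 to 135 in 2C2 and from 126 to 120 in C11, with Dppa5a the most abundant and Sox2 at 0. The summed primitive endoderm markers went from 2.47 to 2.73, from 2.42 to 3.18 and from 3.39 to 4.23 RPKM, led by Lama1, with no marker of the 6 at 0 in any library. The summed fibroblast markers went from 10.1 to 8.89, from 10.8 to 10.7 and from 9.51 to 9.08 RPKM, led by Fn1. The part of these lists in the result was not tested.

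In 11C, 0 of 781 members tested changed level with Dox by edgeR, against 0% of 15140 genes, 2 members (0.256%, against 1.14% of all genes) had an unadjusted p under 0.05, and DESeq2 called 0, against 0.0198% of all genes. Leaving out a library of 11C leaves 1 sample in that state, so that no count is given for such a fit. Mt1 had a log2 change of -0.43 and Hmox1 of -0.59, each with an adjusted p of 1 in edgeR. The difference between the lines in their changes with Dox was not tested. The summed mESC markers went from 99.4 to 112 RPKM in replicate 1 and from 95.8 to 54.2 in replicate 2, so that the 2 pairs differed in direction. Primitive endoderm markers summed to more with Dox in both, from 5.23 to 6.36 and from 4.42 to 5.38 RPKM. Fibroblast markers went from 11.3 to 12.1 in replicate 1 and from 12.9 to 12.2 in replicate 2.

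Between the lines without Dox, members differed in both directions in their total level. Col4a2 and Col4a1, which code for collagen chains of basement membranes, were at 1.24 and 2.53 RPKM in replicate 1 and 1.30 and 2.54 in replicate 2 of 11C. In XistDelA, Col4a2 was at 0.372, 0.404 and 0.496 and Col4a1 at 1.06, 1.15 and 1.38 in C1, 2C2 and C11, and WT had 0.611 and 1.68. Junb, coding for a subunit of the transcription factor AP-1, was at 5.27 and 4.69 in 11C against 1.33, 1.07 and 1.48 in XistDelA. These 3 genes were higher in both replicates of 11C than in any clone of XistDelA. Cnot7, a deadenylase gene, was at 4.70 and 4.82 RPKM in 11C against 10.2, 11 and 9.42 in XistDelA and 8.81 in WT.

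By edgeR, 173 of 777 members tested differed between 11C and XistDelA without Dox, 97 higher and 76 lower in 11C, which is 22.3% of members against 23.1% of 15100 genes and hence no feature of the chromosome. DESeq2 called 196, which is 25.2% against 25.3% of all genes. The edgeR count fell to 60 without clone 2C2, among 1119 genes in all. It was 58 in the libraries with Dox, among 1157 genes in all. Line and its set of libraries run together, so that effects of the deletion, the clone and the library preparation cannot be told apart. The log2 difference was 1.47 for Col4a2 (SE 0.16, adjusted p = 0.00164), 0.97 for Col4a1 (SE 0.15, adjusted p = 0.00421), 1.82 for Junb (SE 0.24, adjusted p = 0.00243) and -1.21 for Cnot7 (SE 0.14, adjusted p = 0.00199), all by edgeR and all kept in the libraries with Dox.

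The largest differences belonged to members at low levels. Hhip, coding for an antagonist of hedgehog ligands, was at 0.0816 and 0.0230 RPKM in 11C against 0.199, 0.197 and 0.432 in XistDelA (log2 difference -2.53, adjusted p = 0.0104 in edgeR), and it passed whichever library was left out. Cib3, a calcium-binding protein gene, had 22 and 28 counts in 11C against 8, 4 and 1 in XistDelA (2.70, adjusted p = 0.0150), and its adjusted p was 0.0619 without 2C2 and 0.0669 without replicate 2 of 11C. Hsd17b2, a steroid dehydrogenase gene, had 29 and 63 counts against 10, 14 and 4 (2.51, adjusted p = 0.0171), with an adjusted p of 0.109 without replicate 2. Dpep2, a dipeptidase gene, had 7 and 3 counts against 26, 26 and 27 (-2.21, adjusted p = 0.0122), with 0.0518 without 2C2. Ttc29, a gene of sperm flagella, had 51 and 40 counts against 23, 7 and 6 (2.10, adjusted p = 0.0198), with adjusted p of 0.0539 to 0.0852 without 2C2, C11, replicate 1 or replicate 2. Of the 5, Cib3, Hsd17b2 and Ttc29 were not called in the libraries with Dox.

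By list, 4 of 8 tissue-restricted genes tested were higher and 2 lower in 11C, with a median log2 difference of 0.97 against 0.02 for all genes tested, of which 1685 were higher and 1798 lower out of 15100. Besides the collagen genes, Nod2, a sensor of bacterial peptides (1.92, adjusted p = 0.00446), was higher, and Cdh8 (-1.51, adjusted p = 0.00218) and Cdh11 (-1.99, adjusted p = 0.00784) were lower, all by edgeR and all kept in the libraries with Dox. The remaining higher gene of this list was Mmp2. Of 25 genes of metabolism, stress and proteostasis, 7 were lower and 0 higher (median -0.17). Hmox1, again chosen after its values were seen, was lower by 1.37 on the log2 scale (log2 difference -1.37, adjusted p = 0.00199 in edgeR). Of 29 genes of RNA processing and translation, 6 were lower and 1 higher (median -0.19). Of 23 chromatin and transcription regulators, 5 were lower and 0 higher (median -0.26). These included Smarca5 (-0.96, adjusted p = 0.00515, and 0.0746 in the libraries with Dox) and Ctcf (-0.60, adjusted p = 0.0120, and 0.0561 without 2C2). Of 28 genes of replication and repair, 2 were higher and 2 lower, and of 17 of development, adhesion and signalling, 2 were higher and 3 lower, with Cdh1 not called (-0.13). DESeq2 gave the same counts but for 8 lower genes of RNA processing and translation and 3 higher genes of development, adhesion and signalling.

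Marker levels differed between the lines as well. Without Dox, the 8 mESC markers summed to 99.4 and 95.8 RPKM in 11C against 159, 157 and 126 in XistDelA, with Dppa5a the most abundant and Sox2 at 0. The 6 primitive endoderm markers summed to 5.23 and 4.42 RPKM in 11C against 2.47, 2.42 and 3.39 in XistDelA, led by Lama1, another gene of basement membranes, and none was at 0. The fibroblast markers summed to 11.3 and 12.9 RPKM against 10.1, 10.8 and 9.51, led by Fn1. Their part in the result was not tested.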

How the data were processed

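The authors counted read pairs of ChrRNA-seq libraries on genes with featureCounts (version 1.5.2, per the file headers) over whole gene spans of mm10 with strand taken into account. They deposited raw counts for 12 libraries, as all read pairs and as those assigned to each parental genome. The submitters' processing notes also name Bowtie2 2.3.2, STAR 2.4.2a, SAMtools, bedtools and edgeR. 129S names here the parental genome with more Xist counts over the libraries with Dox, which held 98.2% to 99.9% of parental Xist counts in the 12 libraries. Overlapping genes on 1 strand share reads that such counting may leave out.

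From the counts, the 129S share (129S over both parental counts) and RPKM over gene spans were computed in Python 3.11.15 with scipy 1.17.1, and figures were drawn with matplotlib 3.10.9. Tests across all genes used edgeR 4.0.16 quasi-likelihood fits in R 4.3.3 with TMM normalization, filterByExpr with a minimum count of 10, Benjamini-Hochberg adjustment and a threshold of 0.05. For shares, the fit had a term for each library and tested the ratio of the parental counts. DESeq2 1.42.0 was the other tool. The scripts were tested on simulated counts. Alternatives covered filters, size factors, the replicate block, the libraries with Dox and leaving out each library.

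Groups come from the labels. WT has 1 library in each state and entered no test across genes. The clones of XistDelA pair the libraries: deviations of the same clone without and with Dox correlated at 0.797 for C1, 0.609 for 2C2 and 0.713 for C11, and other combinations at -0.115 or below. No libraries of a group agreed within sampling noise.

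The members, lists and tests were chosen with earlier results of these data known. Named genes are the members of the 6 lists, the 6 with the most parental counts, the 6 highest and 6 lowest shares, up to 5 with the largest change in each edgeR test, those at the length threshold and the highest and lowest level. Neighbours of these and any other gene were chosen after their values were seen.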

Additional observations from a re-analysis of the deposited data

Results flagged for a closer look

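Among the genes named above, 4 were flagged for values that stood apart. A rate of about 1 in 20 by chance alone would not hold here, as Cers4 was named for its change in XistDelA. The change of the 129S share of Cers4 with Dox was downward in all 3 clones of XistDelA, with a mean of -0.0514, and upward in both replicates of 11C, with a mean of 0.0104. The change of the log2 level of Cul4a was upward in all 3 clones, with a mean of 0.20 (0.204), and downward in both replicates, with a mean of -0.13 (-0.129). Cib3 and Triml1 were not flagged, but their log2 levels also rose in all 3 clones and fell in both replicates. For Cib3, at few counts, the changes were 0.0293 to 0.262 in the clones and -0.605 and -1.17 in the replicates. Those of Triml1 were 0.00167 to 0.113 against -0.0291 and -0.263. None of these differences between the lines was tested. For Gpt2, the change of the log2 level in replicate 2 of 11C, -0.195, lay far from the other 5 pairs, which were all upward. For Lamp1, the change in replicate 1 of 11C, 0.0415, lay far from the other 5 pairs, which were all downward.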

How the results depend on the processing

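The mean change of the pooled share with Dox was upward in every alternative but the median over genes, which reversed it to -0.00165. It was 0.00161 to 0.00222 with a pair left out, where 5 pairs cannot give an exact permutation p under 0.0625, and p was 0.0346 with no pairing of the replicates. The difference in pooled share between the lines kept its sign throughout.

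Of 0 members called for total level with Dox in XistDelA, DESeq2 gave 23 and the replicate block by clone gave 233, and leaving out a library gave 0 throughout. In 11C the samples share only a number, and 2 pairs are too few to tell whether the numbers pair them (correlation of deviations 0.773). There the replicate block gave 5 members among 237 genes in all, and leaving out a library gave 0 to 1. For shares with Dox the block gave 6 members in XistDelA and 2 in 11C, Ankrd10 among the 2, and 142 and 199 genes in all. Between the lines, the count for total level was 58 with the Dox libraries and 60 to 154 with a library left out, and that for shares was 0 to 7 with a library left out. The cause was not tested. The other filters and size factors kept the counts within 1.5 times.

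For 50 gene results under 458 alternatives, 399 kept their side of the threshold, 24 no longer passed (16 on leaving out a library and 8 in the libraries with Dox), 35 passed only under the alternative (23 of them with the block and 9 with DESeq2) and 0 reversed. Where a library is left out of 2, the lone sample is assumed to vary like the others. Depth limits the shares of the 344 members with a mean below 10 parental counts, which are described by their number only.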

Other observations

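The share of some members varied widely between libraries. Among members with at least 50 parental counts, Tll1, coding for a protease of the BMP1 family and chosen after its values were seen, had the widest range, from 0.146 to 0.660 with a median of 0.561. Ndrg4, chosen in the same way, ranged from 0.0645 to 0.527. Its mean was 50 parental counts per library, just at the threshold, against 200.5 for Tll1. Counting error was not separated from variation between libraries in either range.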
